A study of Homo sapiens with 12 samples.

Results

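Leucine is encoded by 2 sets of codons, the 4 codons of the CTN box and the codons TTA and TTG, so the same amino acid can stand before a stop codon through different codons and different tRNAs. The variants described here are reporter sequences whose last codon before the stop codon codes for leucine. They were chosen by sequence alone: a stop codon at bases 7 to 9 of the 10-base window, leucine at bases 4 to 6, and no stop codon in frame before it. The EJC-independent table lists 3388 such variants of 41955, which is 77.1% of the 4392 possible, and the EJC-enhanced table lists 3875 of 51306, or 88.2%. With a mean normalized count of at least 10, 3377 and 3868 were kept, and 11 and 7 fell under that minimum. Of those kept, the EJC-independent reporter had 2473 CTN and 904 TTA or TTG variants, and the EJC-enhanced reporter had 2724 and 1144. Contexts with leucine before TGG, a tryptophan codon in place of the stop codon, served as controls and numbered 1169 and 1386.

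The libraries were made from HEK293T cells, a human embryonic kidney line, that carried 1 of the reporter libraries at a single genomic place after Cre-Lox recombination. Cells with the EJC-independent library and cells with the EJC-enhanced library received either the vehicle DMSO or 0.5 µM SMG1i, an inhibitor of the kinase SMG1, for 24 h before harvest, with 3 libraries in each of the 4 groups. The labels do not say whether the 3 libraries are separate cultures, so the deposited p-values measure the spread between these libraries, which may be technical. Response here means log2 of RNA under SMG1i over RNA under DMSO for 1 variant. The tables do not name the numerator, and the direction was taken so that a positive response is more RNA under the inhibitor.

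Nonsense-mediated decay degrades mRNAs on which translation ends early, and it depends on phosphorylation of UPF1 by SMG1. An exon junction complex left downstream of a stop codon strengthens decay, whereas EJC-independent targets are degraded without one. At termination the last codon is paired with a tRNA in the P site of the ribosome, and that tRNA carries the finished peptide through the last amino acid until release factors hydrolyse the bond. The CTN codons and the TTA and TTG codons are read by separate leucine tRNAs that end in the same amino acid, so a comparison of the boxes holds the last residue constant while the codon and its tRNA change. The series title names the rate of peptidyl-tRNA hydrolysis as its subject.

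Pairs of EJC-independent variants that differ only in the first base of the leucine codon show the comparison directly. The 3 pairs printed had the largest ratio of difference to error among the 409 pairs with at least 100 mean counts for both variants, so their sizes are a description with no independent weight. Each line gives the penultimate codon, the leucine codon in capitals, the stop codon and the following base.
leucine-CTG, TAG: ctcCTGtaga
leucine-TTG, TAG: ctcTTGtaga
isoleucine-CTG, TAA: atcCTGtaac
isoleucine-TTG, TAA: atcTTGtaac
phenylalanine-CTA, TGA: tttCTAtgag
phenylalanine-TTA, TGA: tttTTAtgag
In the authors' deposited table, ctcCTGtaga had a response of 1.84 (SE 0.20), a 3.59-fold rise, and ctcTTGtaga a response of 0.32 (SE 0.33). The mean count and fold correspond to about 279 normalized counts under DMSO and 1001 under SMG1i with CTG, and to about 183 and 228 with TTG; these levels were worked back and are approximate. The authors' deposited table gives 1.88 (SE 0.08) for atcCTGtaac and 1.40 (SE 0.09) for atcTTGtaac, a smaller gap measured at mean counts of 5257 and 3397. For the phenylalanine pair the authors' deposited table gives 1.97 (SE 0.15) with CTA and 0.68 (SE 0.33) with TTA. In all 3 pairs the codon beginning with C was higher.

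The single EJC-independent leucine variants with the largest and smallest responses, among 2483 with at least 100 mean counts and a deposited adjusted p under 0.05, came from both boxes. They are the ends of that filtered set. The adjusted p filter removes small responses, so the lowest here are not the lowest of all leucine variants. For example, ctcTTGtaga above had a response of 0.32 at an adjusted p of 0.405 in the authors' deposited table.
highest, alanine-TTA, TGA: gctTTAtgaa
next highest, threonine-CTG, TAA: actCTGtaac
then, glycine-TTG, TGA: ggcTTGtgag
lowest, serine-CTT, TAG: agtCTTtagg
next lowest, serine-TTA, TAA: agcTTAtaaa
then, cysteine-CTT, TAA: tgtCTTtaat
Their responses in the authors' deposited table were 3.47 (SE 0.46), 3.30 (SE 0.53) and 3.13 (SE 0.40) at the top and 0.47 (SE 0.18), 0.62 (SE 0.29) and 0.65 (SE 0.09) at the bottom. The highest 3 had mean counts of 117 to 177, whereas tgtCTTtaat, among the lowest 3, rested on a mean count of 2566. TTA stands in both the highest variant and the next to lowest. These variants were picked by their responses, so they cannot show how much the last codon sets a response.

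In the EJC-independent reporter, variants ending in TTA or TTG responded less to SMG1 inhibition than variants ending in CTN. The mean response was 1.67 (SD 0.51, n = 2473 variants) for CTN and 1.52 (SD 0.61, n = 904) for TTA and TTG, against 1.72 (SD 0.62, n = 28964) for all stop variants. In a linear model fitted to all stop variants, with the last codon, penultimate codon, stop codon and base 10 as terms and errors clustered by the 6 random bases, the CTN codons lay 0.14 above TTA and TTG (95% interval 0.10 to 0.19, p = 2.46e-10, n = 28964 variants). With the third base held the same, CTA and CTG lay 0.17 above TTA and TTG (0.12 to 0.22, p = 1.10e-10, n = 28964), which is a 1.12-fold difference in the ratio of RNA levels. The spread of single variants was several times this difference, so the boxes overlapped broadly and differed in their means. In TGG contexts, where no stop codon is read in the window, the same contrast was -0.02 (-0.10 to 0.06, p = 0.621, n = 10272). After subtraction of the TGG variant with the same random bases and base 10, CTN averaged 1.67 (SE 0.01, n = 2268) and TTA and TTG 1.51 (SE 0.03, n = 709).

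Depth moved with the box. In the authors' deposited table the median mean count was 412 for CTN and 154 for TTA and TTG, and the median SE of a single response was 0.26 and 0.41. Of the possible sequences, 96.7% of CTC, 90.4% of CTT, 75.8% of CTG and 75.5% of CTA variants were listed, against 61.3% for TTA and 63.0% for TTG. The gap in listing was thus smaller for CTA and CTG, the codons matched to TTA and TTG in the third base. Among well-covered variants, those of at least 500 mean counts, CTN still averaged 1.63 (SE 0.01, n = 1140) and TTA and TTG 1.51 (SE 0.02, n = 189). The gap between the box means was 0.20 at mean counts of 10 to 100, 0.15 at 100 to 500 and 0.12 above that. CTN was the higher box in all 3 ranges of depth. The mean count includes the RNA under both treatments, so these ranges select in part on the response.

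TTA was the leucine codon that stood lowest. Its mean response was 1.44 (SD 0.56, n = 446), and in the model it was the third lowest of the 61 sense codons, after the tyrosine codons TAT and TAC. It lay 0.29 below the mean of the other 60 codons (interval -0.34 to -0.23, adjusted p = 2.27e-20 over 61 codons, Benjamini-Hochberg). In a family of all 1830 codon pairs, of which 1258 passed, TTA was lower than 49 codons, higher than 0, and not told apart from 11, which included both tyrosine, both phenylalanine and both histidine codons. TTG, which differs from TTA only in the third base, averaged 1.60 (SD 0.65, n = 458) and was lower than 36 codons and higher than 9.

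The CTN codons spread over a narrower range. CTT averaged 1.62 (SD 0.48, n = 661), CTA 1.66 (SD 0.58, n = 550), CTC 1.67 (SD 0.34, n = 708) and CTG 1.73 (SD 0.65, n = 554). Against the other 60 codons in the model, CTT fell by 0.11 (adjusted p = 1.21e-06), CTA by 0.07 (adjusted p = 0.00669), CTC by 0.06 (adjusted p = 6.67e-07) and TTG by 0.13 (adjusted p = 4.62e-06), all by Benjamini-Hochberg over 61 codons. CTG differed from them by 0.00 (interval -0.05 to 0.05, adjusted p = 0.976). Thus 5 of 6 leucine codons were lower and 0 were higher, where 34.4% of all 61 codons were called lower and 26.2% higher. In TGG contexts 0 of 61 codons passed, with 6 at an unadjusted p under 0.05, none of which codes for leucine.

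Codons for the same amino acid were then compared with each other, 87 synonymous pairs in all. In the EJC-independent reporter 7 of 15 leucine pairs passed an adjusted p of 0.05 in the linear model, where 25.3% of all synonymous pairs did. Across the boxes 5 of 8 pairs passed, and within CTN 1 of 6 did. CTG exceeded TTA by 0.28 (interval 0.21 to 0.36, adjusted p = 2.95e-11), the second largest synonymous difference of the 87 in size after the arginine pair AGG and CGT. CTC exceeded TTA by 0.22 (0.16 to 0.28, adjusted p = 2.61e-10), CTA exceeded TTA by 0.21 (0.14 to 0.29, adjusted p = 7.08e-07) and CTT exceeded TTA by 0.17 (0.10 to 0.24, adjusted p = 7.31e-05). TTA was therefore below each codon of the other box.

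TTG was closer to the CTN codons. It was lower than CTG, by 0.13 (interval 0.06 to 0.20, adjusted p = 0.00386), while its differences from CTA (0.06, -0.01 to 0.13), CTC (0.07, 0.01 to 0.12, adjusted p = 0.0785) and CTT (0.02, -0.05 to 0.08) did not pass in the linear model. TTA also differed from TTG, the other codon of its own box, with a difference of -0.15 (-0.23 to -0.08, adjusted p = 0.00118). Within CTN, CTG exceeded CTT by 0.11 (0.05 to 0.18, adjusted p = 0.00518), and the other 5 pairs did not pass. Over the 6 leucine codons the fitted values spanned 0.28, as they did over the 6 arginine codons, and the span of every other amino acid was 0.17 or less. In TGG contexts 0 of 87 synonymous pairs passed; 6 had an unadjusted p under 0.05, and 0 of these were leucine pairs.

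The first base of the codon can be changed from C to T with the rest fixed in 13 codon pairs, of which CTA with TTA and CTG with TTG keep leucine, and CTC with TTC and CTT with TTT exchange leucine for phenylalanine. All 4 pairs with leucine were higher with C in the EJC-independent reporter, where 53.8% of the 13 were. CTC exceeded TTC by 0.17 (interval 0.13 to 0.21) and CTT exceeded TTT by 0.15 (0.08 to 0.21), so the steps that changed the amino acid were of the same order as the step from CTA to TTA or from CTG to TTG. The arginine to cysteine steps were larger, at 0.27 for CGC with TGC and 0.34 for CGT with TGT. Proline to serine went the other way, with 2 pairs lower with C: CCC was 0.06 below TCC and CCT was 0.09 below TCT. TTA and TTG together differed from TTT and TTC by 0.04 (-0.01 to 0.09, p = 0.0851, n = 28964), whereas CTT and CTC exceeded TTT and TTC by 0.16 (0.12 to 0.20); in TGG contexts these contrasts were 0.08 (0.00 to 0.16) and 0.06 (0.00 to 0.12).

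Each of the 3 stop codons showed CTN above TTA and TTG in the EJC-independent reporter. Before TAA the means were 1.65 for CTN and 1.49 for TTA and TTG, before TAG 1.63 and 1.47, and before TGA 1.72 and 1.61. With the third base held the same, the modelled differences were 0.15 (interval 0.07 to 0.23), 0.19 (0.10 to 0.28) and 0.17 (0.08 to 0.26). The box difference before TGA departed from that before TAA and TAG by 0.00 (-0.10 to 0.11, p = 0.965, n = 28964). Leucine before TGA responded at 1.69, below the 1.84 of all TGA variants, and leucine before TAA and TAG at 1.60 and 1.59.

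Fitted for each stop codon apart, 14 of 45 leucine pairs passed, where 11.9% of the 261 synonymous pairs did. CTG exceeded TTA before every stop codon, by 0.21 before TAA (adjusted p = 0.00554), 0.39 before TAG (adjusted p = 1.17e-06) and 0.24 before TGA (adjusted p = 0.00992), by Benjamini-Hochberg over 261 pairs. CTA exceeded TTA by 0.26 before TAA (adjusted p = 2.34e-04), 0.22 before TAG (adjusted p = 0.00623) and 0.15 before TGA (adjusted p = 0.151). CTG exceeded TTG by 0.19 before TGA (adjusted p = 0.0387), while the differences before TAA (0.04) and TAG (0.15) did not pass in the same linear model. None of these pairs was shown to differ between stop codons: 0 of 87 pairs passed in each of 4 comparisons between stop codons, with 3 to 7 at an unadjusted p under 0.05, of which 1 to 3 were leucine pairs.

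A leucine codon ending in A forms an ATG together with a following TGA, because its last base joins the first bases of the stop codon. Codons ending in A responded less than codons ending in G by 0.06 before TAA (interval of the difference -0.14 to 0.02), by 0.20 before TAG (-0.29 to -0.11) and by 0.07 before TGA (-0.16 to 0.02). Against TAG, the step was smaller before TGA by 0.13 (0.00 to 0.25, p = 0.0457, n = 28964) and before TAA by 0.14 (0.01 to 0.26, p = 0.0346, n = 28964). Neither passed over the 3 comparisons of single stop codons (adjusted p = 0.0685 for both). TGA against TAA gave -0.01 (-0.13 to 0.11, p = 0.869, n = 28964), and TGA against TAA and TAG together 0.06 (-0.05 to 0.16, p = 0.274, n = 28964). With all contexts that hold an ATG left out, the difference of CTA and CTG from TTA and TTG was 0.19.

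The estimated box difference varied with base 10, the base after the stop codon, but no difference between bases passed. With the third base held the same, CTA and CTG exceeded TTA and TTG by 0.29 when base 10 was A (interval 0.15 to 0.42) and by 0.24 when it was T (0.14 to 0.33). The difference was 0.09 when it was C (0.01 to 0.17) and 0.09 when it was G (-0.03 to 0.22). Of the 6 comparisons between bases, added after these values were seen, A against C gave 0.20 (0.04 to 0.36), A against G 0.20 (0.02 to 0.38) and C against T -0.15 (-0.27 to -0.02), each with an adjusted p of 0.0654 over the 6. By single pairs 12 of 60 leucine pairs passed, where 4.02% of the 348 synonymous pairs did, and 0 of those 12 were among variants with G at base 10. With A at base 10 TTA averaged 1.38 and CTG 1.87, the widest gap between leucine codons at any base 10.

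The mean response of leucine variants also varied with the penultimate amino acid. In the EJC-independent reporter the mean response was highest after valine (1.81, SE 0.04, n = 217), methionine (1.70, SE 0.10, n = 45) and isoleucine (1.69, SE 0.05, n = 161). It was lowest after arginine (1.49, SE 0.03, n = 301), histidine (1.50, SE 0.05, n = 137) and tryptophan (1.52, SE 0.10, n = 44). Over all stop variants the mean was also highest after valine (1.86) and lowest after arginine (1.57), so this order is not particular to leucine at its ends. Within leucine the ends of the order over 20 penultimate amino acids differed by 0.33. Leucine lay below the mean of all stop variants after each of the 20. Methionine came closest to that mean, with a gap of -0.00.

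CTN averaged above TTA and TTG after 18 of 20 penultimate amino acids, valine and tyrosine being the exceptions. After serine the box means were 1.68 (SE 0.03) and 1.44 (SE 0.05), and CTA or CTG exceeded the matching TTA or TTG variant in 75 of 100 pairs. After histidine they were 1.59 (SE 0.04) and 1.29 (SE 0.11), and the C codon was higher in 34 of 41 pairs. After valine they were 1.80 (SE 0.05) and 1.85 (SE 0.10), and the C codon was higher in 20 of 46 pairs. These are descriptions of small sets, and no test of the difference between penultimate amino acids was made. Over the 20 penultimate amino acids the CTN and TTA or TTG means had a Pearson r of 0.58 (-0.45 in the EJC-enhanced reporter), given as a description because both come from the same libraries.

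Variant against variant, the box difference was hardly resolved. Among 771 EJC-independent pairs that differ only in the first base of the leucine codon, the C member was higher in 476 (61.7%), with a mean difference of 0.16 (SD 0.79). Computed from the responses and standard errors of the authors' deposited table, 2 of these pairs passed an adjusted p of 0.05, where 0.403% of 32995 synonymous pairs did: the ctc and atc pairs printed above, with adjusted p of 0.0266 and 0.0268. Both members were covered with 500 counts or more in 100 pairs, and there the C member was higher in 73 and the mean difference was 0.14 (SD 0.25). Depth thus narrowed the spread and left the mean near the same size.

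As single variants, almost all well-measured leucine contexts responded. By the authors' deposited table, 2893 of 3377 EJC-independent leucine variants were higher under SMG1i at an adjusted p of 0.05 and 0 were lower, where 84.9% of all stop variants were called higher. The share was 89.6% for CTN and 75.0% for TTA and TTG, and in both boxes 100% at mean counts of 500 or more, so the gap in this share closed at high depth. In TGG contexts with leucine the authors' deposited table called 41 of 1169 variants higher and 48 lower, where 4.09% and 4.03% of all TGG variants were called. The mean of the leucine TGG contexts was -0.00 (SD 0.51).

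In the EJC-enhanced reporter the leucine boxes were not told apart. CTN variants averaged 2.30 (SD 0.63, n = 2724) and TTA and TTG variants 2.27 (SD 0.87, n = 1144), against 2.29 (SD 0.76, n = 34522) for all stop variants. The model gave 0.04 for CTN over TTA and TTG (interval -0.02 to 0.09, p = 0.227, n = 34522) and 0.05 with the third base held the same (-0.02 to 0.11, p = 0.153). By codon, the means ran from 2.25 for TTA over 2.29 for CTC, CTT and TTG and 2.30 for CTA to 2.33 for CTG. The order of the ends was that of the EJC-independent reporter, with TTA lowest and CTG highest, within a span of 0.08 in the fitted values.

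No leucine codon of the EJC-enhanced reporter passed against the other codons in either direction in the linear model, where 1.64% of 61 codons were called lower and 1.64% higher; 0 leucine codons and 6 of all codons had an unadjusted p under 0.05. No leucine pair passed among 15, where 2.3% of the 87 synonymous pairs did; 0 leucine pairs and 12 of all pairs had an unadjusted p under 0.05. The 2 pairs that passed were arginine pairs with AGG. Of the 13 first-base pairs 0% were called higher with C, with 2 at an unadjusted p under 0.05, CTC with TTC being one of them. Split by stop codon, 0% of 261 pairs passed, with 2 leucine pairs and 21 pairs in all at an unadjusted p under 0.05. Split by base 10, 0% of 348 passed, with 4 leucine pairs and 27 pairs in all at an unadjusted p under 0.05. In TGG contexts 0 of 61 codons and 0 of 87 pairs passed, with 6 codons and 3 pairs at an unadjusted p under 0.05, of which 0 codons and 1 pair were leucine.

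Single responses were less precise in this reporter. In the authors' deposited table the median SE of a single response was 0.47 for CTN and 0.65 for TTA and TTG, at median mean counts of 252 and 100.5. Only 59 TTA or TTG variants reached a mean count of 500. The errors were also larger in the same range of depth. Over leucine variants of 500 counts or more the median SE was 0.34, against 0.15 in the EJC-independent reporter. At 100 to 500 counts it was 0.48 against 0.34, and at 10 to 100 counts 0.77 in both. In the ranges of depth the box means differed by 0.06 at 10 to 100 counts, -0.02 at 100 to 500 and -0.08 above that. With variants of 500 counts or more alone, the model placed CTC 0.18 and CTT 0.19 below the other codons (adjusted p = 8.97e-14 and 8.54e-15), and TTA above both, by 0.15 (adjusted p = 0.0114) and 0.16 (adjusted p = 0.00648). The order of TTA and these CTN codons was then opposite to that in the EJC-independent reporter. The mean count includes the RNA under both treatments, so a minimum count selects in part on the response.

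The extremes of the EJC-enhanced reporter, by the same rule among 2599 variants, are shown because the codon TTG stood at the top here.
highest, tyrosine-TTG, TGA: tatTTGtgac
next highest, tryptophan-TTG, TGA: tggTTGtgaa
then, arginine-CTA, TGA: cggCTAtgaa
lowest, arginine-TTA, TAA: cgtTTAtaac
next lowest, leucine-CTA, TAA: cttCTAtaaa
then, leucine-CTA, TAG: cttCTAtagt
The authors' deposited table gives responses of 6.50 (SE 0.70), 6.33 (SE 0.82) and 6.04 (SE 1.14) for the first 3 and 0.92 (SE 0.42), 1.05 (SE 0.44) and 1.13 (SE 0.52) for the last 3. The highest 3 all ended in TGA and rested on about 3.01 to 5.52 normalized counts under DMSO, worked back from the mean count and the fold, so their size depends on very few reads. The partner of tatTTGtgac in the other box, tatCTGtgac, had a response of 2.49 (SE 0.60) in the authors' deposited table. The difference from tatTTGtgac was -4.01 (adjusted p = 0.0301 from the deposited standard errors). This was the 1 pair that passed of 1053 pairs across the boxes (0.095%), where a similar 0.0859% of 43080 synonymous pairs did. It was opposite in direction to the called pairs of the EJC-independent reporter. Among pairs of at least 100 mean counts, the next by Wald score went both ways. The difference was -1.65 after leucine before TAA and 3.56 after phenylalanine before TGA (adjusted p = 0.145 for both, Wald test). Over the 1053 pairs the C codon was higher in 535 (50.8%), with a mean difference of 0.02 (SD 1.08).

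By penultimate amino acid, EJC-enhanced leucine variants ranged from 2.18 after lysine (SE 0.10, n = 89) to 2.38 after tyrosine (SE 0.07, n = 138). CTN averaged above TTA and TTG after 12 of 20 penultimate amino acids, and the matched difference was positive after 11 of 20. After arginine, the lowest of the EJC-independent reporter, leucine variants had one of the higher means here, 2.34 (SE 0.04). By the authors' deposited table, 3428 of 3846 leucine variants with a p-value were called higher and 0 lower, where 86.1% of all stop variants were called higher. The share was 92.7% for CTN and 80.7% for TTA and TTG, which had lower counts. Within ranges of depth the shares lay closer: 74.7% and 68.2% at 10 to 100 mean counts, 95.8% and 91.7% at 100 to 500, and 99.1% and 96.6% above that. Of 1384 TGG contexts with leucine, the authors' deposited table called 37 higher and 24 lower, where 2.76% and 1.38% of all TGG variants were.

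The difference between the reporters was tested on contrasts within each table, since the tables were normalized apart. The box difference was larger in the EJC-independent reporter by 0.11 for CTN (interval 0.04 to 0.18, p = 0.0032, n = 28964 and 34522) and by 0.12 with the third base held the same (0.04 to 0.21, p = 0.00426). Of the 87 synonymous pairs 2.3% differed between reporters at an adjusted p of 0.05, 2 pairs, and both were leucine pairs with TTA. CTG over TTA was 0.28 against 0.08, a gap of 0.20 (0.08 to 0.32, adjusted p = 0.0331), and CTC over TTA was 0.22 against 0.04, a gap of 0.18 (0.08 to 0.27, adjusted p = 0.0331). CTA over TTA was 0.21 against 0.05, a gap of 0.16 (0.04 to 0.27) that did not pass over the 87 (adjusted p = 0.202). After subtraction of matched TGG variants, which widens the error, the gaps in the box difference were 0.11 (p = 0.0641, n = 24075 and 32659 matched variants) and 0.10 (p = 0.17) and no longer passed, and 0 leucine pairs did.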

How the data were processed

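RNA of reporter variants was sequenced from 12 libraries. The authors deposited 1 table per reporter and no value per library. Its columns, per the file headers, are the mean normalized count (a signal: counts divided by size factors, averaged over libraries), the log2 fold change, its error, a Wald score, and raw and adjusted p-values. Tools named in the submitters' processing notes are DESeq and DESeq2; their versions and how reads were assigned to variants are not stated in the labels or headers. The adjusted p-values are Benjamini-Hochberg values over each deposited table, checked to a largest gap of 4.44e-16. The sign of the deposited log2 fold change was reversed, because stop variants are negative and TGG variants near 0 as deposited; with the opposite numerator all signs would turn.

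Variants of at least 10 mean counts entered an ordinary least squares model over all sense-context stop variants (28964 and 34522), with cell means for 61 last codons and sum-coded penultimate codon, stop codon and base 10. Standard errors were clustered by the 6 random bases (3662 and 3698 contexts). TGG variants were fitted apart. Benjamini-Hochberg adjustment ran within each family and reporter. Matched variants were compared by a Wald test from the deposited standard errors. The units of these tests are sequences measured in the same libraries, not cultures, so errors and p-values reflect how sequences vary. Named contexts are all leucine codons, stop codons and bases 10, the 3 highest and 3 lowest penultimate amino acids, the 3 highest and 3 lowest single variants and the 3 box pairs with the largest Wald score; serine, histidine and tyrosine as penultimate residues and the EJC-enhanced codon pairs at high counts were named after their values were seen, as were the family of 1830 codon pairs and the comparisons between bases 10. The members and lists were chosen with earlier results of these data known. Calculations used python 3.11.15, numpy 2.4.6, pandas 2.3.3 and scipy 1.17.1, and the model was tested on simulated data. Variants carry no genome coordinates, as the place of integration is not stated in the labels or headers.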

Additional observations from a re-analysis of the deposited data

Results flagged for a closer look

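The steps from TTA to CTG and to CTC differed between the reporters, while those to CTA, CTT and TTG did not pass (adjusted p = 0.202, 0.402 and 0.538 by the same test). CTG minus TTA differed by 0.20 and CTC minus TTA by 0.18 (EJC-independent minus EJC-enhanced), the synonymous pairs for which a test of the difference passed over 87 pairs. The difference between the boxes also differed between the reporters, by 0.11 for CTN minus TTA and TTG and by 0.12 with the third base held the same, each by its own test. After subtraction of matched TGG variants neither these box differences nor any leucine pair passed. Median counts differ between the reporters as well, 154 against 100.5 for TTA and TTG, and the part of depth in these gaps was not tested beyond the alternatives listed with the processing.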

How the results depend on the processing

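No paired analysis was possible because the deposited tables hold no counts per library; for the same reason no replicate was left out, no block fitted and no other size factors tried. A minimum mean count of 500 and a linear term for log2 mean count were added after seeing the data.

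In the EJC-independent reporter the box difference kept its direction under every alternative run: 0.12 to 0.15 for CTN minus TTA and TTG, and 0.13 to 0.19 for CTA and CTG. It passed in each alternative with a test. TTA stayed below the other codons by 0.25 to 0.31.

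With matched TGG variants subtracted, 3 leucine codons rather than 5 were called lower, 4 leucine pairs rather than 7 passed, CTG minus TTG was 0.10 (adjusted p = 0.557), the box differences between reporters were 0.11 and 0.096 without passing, and 0 leucine pairs differed between reporters; this uses fewer variants. Inverse variance weights called 12 leucine pairs and a minimum count of 500 called 11. The number of leucine pairs that differ between reporters was 1 at a minimum count of 50, 5 with weights, 7 at a minimum of 500 and 5 with the depth term. CTG against the other codons, near 0, turned to -0.028 at a minimum of 50, -0.00098 with weights, -0.026 after TGG subtraction and -0.0048 at a minimum of 500. CTT minus TTG turned to -0.0098 with weights, and CTA minus CTC to 0.014 without ATG contexts.

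In the EJC-enhanced reporter signs were not stable. The difference of CTN from TTA and TTG was -0.021 at a minimum count of 50, -0.10 at 500 and -0.026 with the depth term; that of CTA and CTG was -0.0017 at 50 and -0.034 at 500. CTA minus TTA and CTG minus TTG were -0.00051 and -0.0029 at a minimum of 50 and -0.042 and -0.026 at 500. Against the other codons, CTA, CTC and CTT were -0.031, -0.052 and -0.033 at a minimum of 50. With weights they were -0.015, -0.025 and -0.032, and TTG was -0.015. At 500, CTA, CTC, CTG and CTT were -0.074, -0.18, -0.026 and -0.19. CTC and TTG were -0.033 and -0.021 after TGG subtraction, and CTC and CTT -0.089 and -0.054 with the depth term. Leucine codons called lower numbered 1 at a minimum of 50, 2 at 500 and 1 with the depth term, against 0. Leucine pairs called numbered 4 at 500 and 1 with the depth term (CTC minus CTG, -0.12), against 0. At an adjusted p of 0.01, 0 matched variant pairs passed in either reporter. The cause of these changes was not tested.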
